A study of Mus musculus with 6 samples.

Results

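Genes of blood vessels were followed in the developing mouse retina with and without Ronin. The set was given by name: Flt1, Kdr, Pecam1, Cdh5, Tie1, Tek, Eng, Cldn5, Esam and Emcn. All 10 have a row in the table of 23441 genes, and all 10 passed the filter on low counts that left 14609 genes for testing. Retinae were taken at embryonic day 14.5 from mice of mixed background drawn from C57/B6, SJL/B6, 129/Sv and FVB. Each library of both groups came from mice with Ronin flox/flox alleles, in which Thap11, the gene of the transcription factor Ronin, can be excised. The 3 control libraries carried these alleles alone. The 3 conditional knockout (CKO) libraries also carried 1 copy of Chx10-Cre::GFP, a transgene for Cre fused to GFP whose driver is active in retinal progenitor cells, so that the labels do not place the deletion in vessel cells. The labels do not say whether replicates came from separate animals or whether retinae were pooled, so p-values reflect variation among these libraries, part of which may be technical.

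Endothelial cells line blood vessels and are assembled under the control of vascular endothelial growth factor (VEGF), which acts through the receptor kinases VEGFR-1 (Flt1) and VEGFR-2 (Kdr). VEGFR-2 carries most of the signal, and VEGFR-1 binds the ligand tightly and limits it. The embryonic mouse retina has no vessels within its neural layer, and the nearby vessels belong to the hyaloid system in the vitreous and to the choroid behind the pigment epithelium. Kdr is also transcribed by retinal progenitor cells, whereas the other 9 genes are used as endothelial markers.

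The start regions of the VEGF receptor genes are shown because Flt1 and Kdr bind the same ligand and are set against each other in the results. Sequences are from RefSeq (GRCm38.p6), 250 bases up to the annotated start, 5′ to 3′ on the gene's strand, with capitals marking GGAAGT on either strand, the core recognised by ETS factors. The Flt1 window is chr5:147726012-147726261 and that of Kdr chr5:75978456-75978705, both on the minus strand.
Flt1: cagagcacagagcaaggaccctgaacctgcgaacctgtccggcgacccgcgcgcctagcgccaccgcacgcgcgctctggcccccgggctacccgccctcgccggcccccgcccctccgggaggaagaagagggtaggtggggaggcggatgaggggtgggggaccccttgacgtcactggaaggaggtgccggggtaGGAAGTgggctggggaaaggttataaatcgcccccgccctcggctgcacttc
Kdr: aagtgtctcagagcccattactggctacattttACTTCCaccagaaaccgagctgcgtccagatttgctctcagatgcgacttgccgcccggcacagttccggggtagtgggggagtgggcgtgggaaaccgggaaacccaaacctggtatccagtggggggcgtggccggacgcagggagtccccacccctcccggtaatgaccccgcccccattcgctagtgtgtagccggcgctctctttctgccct
Matches began 52 bases before the start in Flt1 and 217 bases before it in Kdr. RefSeq start regions were found for 7 of the 10 genes (Flt1, Kdr, Tie1, Tek, Eng, Cldn5 and Emcn). GGAAGT occurred in 4 of these (Flt1, Kdr, Tie1 and Eng) and in 19.7% of all 32851 start regions of this length. ACTACA, the core of an element that Ronin and its partner ZNF143 are known to occupy, was found on either strand in 1 of the 7 (Tie1) and in 8.92% of all. These matches describe letters in a window and not binding.

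The libraries held between 23721052 and 28504391 counted reads. Thap11 stood at 73.9 ± 7.17 CPM (reads per 1000000 after TMM scaling of each library's total) in control libraries and 9.48 ± 2.69 CPM in CKO libraries (SD, each n = 3), a 7.78-fold fall (edgeR quasi-likelihood test, Benjamini-Hochberg adjusted p = 0.00425). Retinal progenitor markers were abundant in each library, with a summed level of 10040 to 10394 CPM in control libraries and 9412 to 10021 CPM in CKO libraries over 14 genes. Control replicate 2 stood apart, with Pearson correlations of 0.957 to 0.974 with the other controls on log2 CPM, against 0.987 to 0.994 among the CKO libraries. Lens markers differed among the CKO libraries, with a summed level of 9682, 65.4 and 696 CPM in CKO replicates 1 to 3 and 11.9 to 18.9 CPM in the controls.

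Most of the vessel genes stood lower in the CKO retina, without a call by the main test. Log2 fold changes (CKO minus control) were negative for 9 of 10 members, with a median of -0.52, and for 55.0% of all tested genes, with a median of -0.03. None of the 10 passed edgeR's test at an adjusted p under 0.05, a threshold that 0.705% of all tested genes passed as lower. At an unadjusted p under 0.05, 2 of 10 were lower (Flt1 and Pecam1), against 4.36% of all genes. DESeq2's Wald test called 1 of 10 lower (Flt1), against 1.46% of all genes, and limma-voom called 0, against 0.637%. In 4 of 10 members (Flt1, Kdr, Pecam1 and Cldn5) each CKO library lay below each control library, as in 6.91% of all tested genes, and in 0 of 10 it lay above (5.74% of all). In these bulk libraries, fewer endothelial cells and less RNA per cell cannot be told apart. Nor can either be told from variation among 3 libraries per group or from uneven amounts of nearby vessel tissue.

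**Figure D1:**
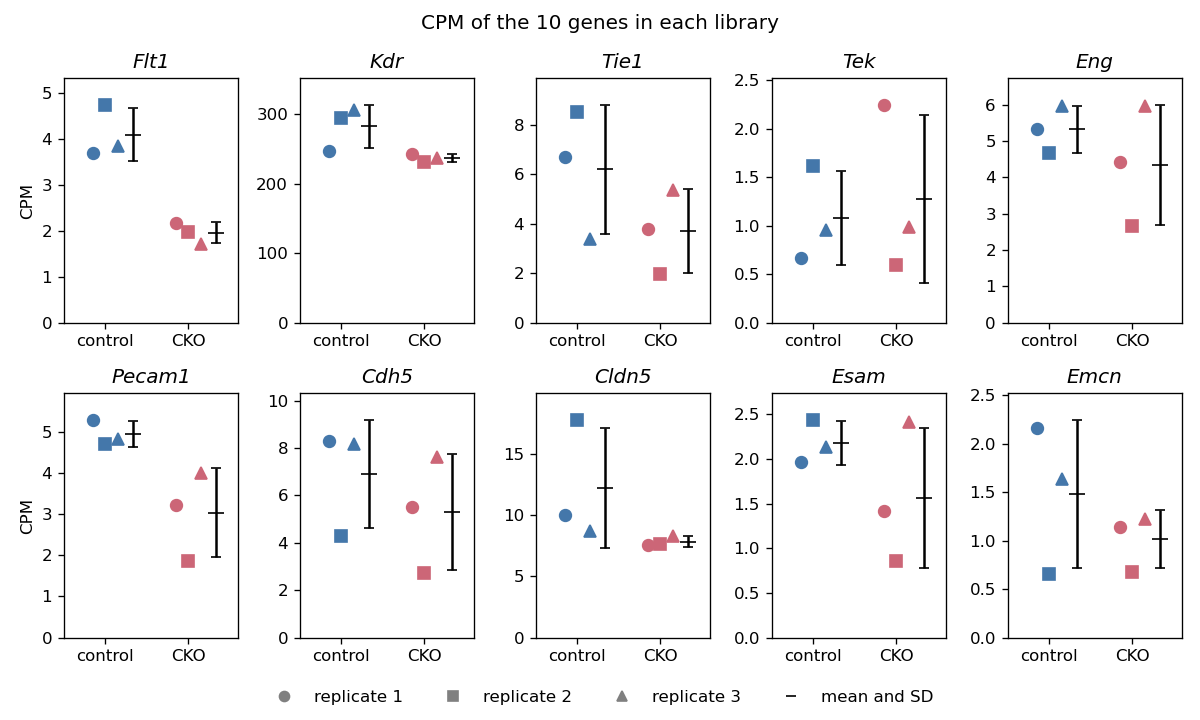
CPM of the 10 genes (vertical axes, each starting at 0) in 3 control and 3 CKO libraries, with marker shapes for the replicate number and a black bar for the mean and SD. Flt1 ran from 3.69 to 4.75 CPM in control libraries and from 1.72 to 2.18 CPM in CKO libraries, whereas Eng, Cdh5, Esam, Tie1, Tek and Emcn overlapped between the genotypes.

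Flt1 had the largest difference in size in the reported fit, although Tie1 exceeded it without CKO replicate 3 (-1.11 against -0.97) and Tek with both replicates numbered 2 omitted (1.02 against -0.93). Flt1 had 94, 109 and 101 reads in the controls (replicates 1 to 3, the order used throughout) and 63, 53 and 42 in the CKO, or 3.69, 4.75 and 3.84 CPM against 2.18, 1.98 and 1.72 CPM. The groups did not overlap, and the CKO libraries lay close together. Its mean was 4.10 ± 0.57 CPM and 1.96 ± 0.23 CPM in control and CKO (SD, each n = 3), giving a log2 fold change of -1.06 ± 0.22 (SE, edgeR adjusted p = 0.123). DESeq2 gave -1.04 ± 0.27 with an adjusted p = 0.00684. The spread of Flt1 was close to what counting alone gives: its coefficient of variation was 14.0% in the controls and 11.9% in the CKO, where the mean read number gives 9.93% and 13.8%.

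Kdr, the main signalling receptor for VEGF, was the most abundant member and had a small difference between genotypes, close in size to those of Tek and Eng. It stood at 247, 296 and 306 CPM in control libraries and 243, 232 and 237 CPM in CKO libraries. The CKO libraries lay close together just below control replicate 1, and the other two controls stood higher. Its log2 fold change was -0.25 ± 0.13 (SE, edgeR adjusted p = 0.883). Counting error was small here (1.19% in the controls), so the control variation of 11.2% reflects differences between libraries.

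The angiopoietin receptor genes and endoglin were less regular. Tie1, an orphan receptor that partners with the product of Tek, stood at 6.71, 8.55 and 3.39 CPM in control libraries and 3.77, 1.98 and 5.36 CPM in CKO libraries. Control replicate 3 lay below CKO replicates 1 and 3, so the groups overlapped (log2 fold change -0.75 ± 0.44). Tek, which encodes the angiopoietin receptor TIE2, stood at 0.67, 1.61 and 0.95 CPM in control libraries and 2.25, 0.60 and 0.98 CPM in CKO libraries. CKO replicate 1 was the highest library, and the log2 fold change of 0.26 ± 0.54 became -0.44 ± 0.49 without it. Its 65 reads there have a 95% exact Poisson interval of 50.2 to 82.8 and the 16 reads of CKO replicate 2 one of 9.15 to 26.0, which cover counting error only. Eng, a co-receptor for ligands of the TGF-beta family, stood at 5.34, 4.67 and 5.97 CPM in control libraries and 4.43, 2.65 and 5.97 CPM in CKO libraries. CKO replicate 3 matched the highest control, and the log2 fold change was -0.29 ± 0.30.

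Among genes of endothelial junctions and surface, Pecam1, Cdh5 and Esam had the same order of the CKO libraries, lowest in replicate 2 and highest in replicate 3. Pecam1 (CD31), an adhesion molecule, stood at 5.30, 4.71 and 4.83 CPM in control libraries and 3.22, 1.87 and 4.01 CPM in CKO libraries. The groups did not overlap, the controls were tight and the CKO libraries spread widely (log2 fold change -0.71 ± 0.29, edgeR adjusted p = 0.713). Without CKO replicate 2 the log2 fold change was -0.45. Cdh5 (VE-cadherin), of adherens junctions, stood at 8.28, 4.27 and 8.18 CPM in control libraries and 5.50, 2.72 and 7.60 CPM in CKO libraries. Replicate 2 was the lowest library in each group, and the log2 fold change was -0.39 ± 0.40. Esam, an adhesion molecule of endothelial tight junctions, stood at 1.96, 2.44 and 2.13 CPM in control libraries and 1.42, 0.86 and 2.41 CPM in CKO libraries. Its CKO replicate 3 lay within the range of the controls (log2 fold change -0.48 ± 0.38).

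Cldn5, the main claudin of tight junctions in brain and retinal vessels, stood at 10.1, 17.8 and 8.75 CPM in control libraries and 7.58, 7.65 and 8.34 CPM in CKO libraries. The groups did not overlap, but the difference rested mostly on control replicate 2: the log2 fold change was -0.63 ± 0.28 with that library and -0.25 without it. Emcn, an endothelial sialomucin, stood at 2.16, 0.65 and 1.64 CPM in control libraries and 1.14, 0.67 and 1.23 CPM in CKO libraries. Control replicate 2 was the lowest of the 6 libraries for this gene, at 15 reads (95% exact Poisson interval 8.40 to 24.7), and the log2 fold change was -0.56 ± 0.46. It was -0.89 without that library and -0.19 without control replicate 1.

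CKO replicate 2 was the lowest library for 6 of the 9 members other than Kdr (Pecam1, Cdh5, Tie1, Tek, Eng and Esam), and for 8.60% of all tested genes. Summed over those 9 genes, the level was 44.2, 49.5 and 39.7 CPM in control libraries and 31.5, 21.0 and 37.6 CPM in CKO libraries. CKO replicate 2 was lowest and CKO replicate 3 close to control replicate 3. The median log2 fold change of the 9 was -0.56 with all libraries, -0.33 without CKO replicate 2 and -0.75 without CKO replicate 3. Flt1 did not follow this order of the CKO libraries, since it was lowest in CKO replicate 3, where the members other than Tek and Kdr were otherwise at their highest within the CKO. Flt1 reads made up 8.36%, 9.60% and 9.68% of the reads of the 9 genes in the controls and 6.92%, 9.43% and 4.57% in the CKO, so this share overlapped between groups.

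**Figure D2:**
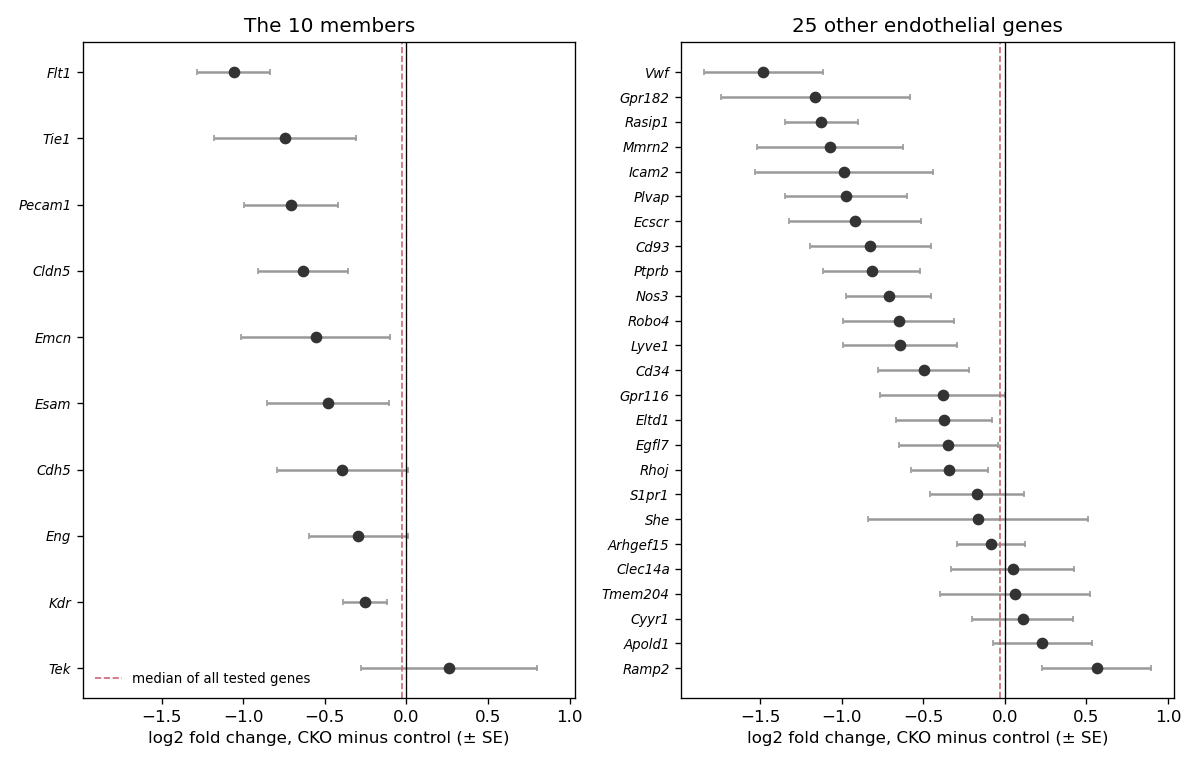
Log2 fold change (CKO minus control, horizontal axis, bars ± SE) from edgeR for the 10 members (left) and 25 further endothelial genes (right), with the median of all tested genes as a dashed line. Members ran from -1.06 for Flt1 to 0.26 for Tek, and 20 of the 25 further genes were negative.

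The question behind the set was whether Kdr, which retinal progenitors also transcribe, moved with the other endothelial genes. Levels were first put on a common scale by exon length (GENCODE M21, GRCm38), as CPM per kilobase of exon. On this scale the control mean of Kdr was 31.3 ± 3.50, that of Cldn5 8.62 ± 3.47, that of Cdh5 1.64 ± 0.54, that of Eng 1.32 ± 0.16 and that of Tie1 1.26 ± 0.53 (SD, n = 3). Pecam1 (0.79 ± 0.05), Esam (0.76 ± 0.08), Flt1 (0.30 ± 0.04), Emcn (0.27 ± 0.14) and Tek (0.23 ± 0.10) were lower. Kdr lay beyond the spread of Cldn5, and Cldn5 beyond that of Cdh5. Cdh5, Eng and Tie1 overlapped within their SD, as did Pecam1 and Esam, and Flt1, Emcn and Tek. Tie1 also overlapped Pecam1 and Esam within its SD. The highest of 28 further endothelial genes was S1pr1, a receptor for sphingosine-1-phosphate, at 5.56 per kilobase. The lowest of 14 progenitor genes, Lhx2, stood at 49.7, so that Kdr lay between those lists.

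Per read of the other 9 genes, Kdr had 5.59, 5.97 and 7.70 reads in the controls and 7.72, 11.0 and 6.30 reads in the CKO. The ratio was highest in CKO replicate 2, and CKO replicate 3 lay within the range of the controls. The CKO mean was 0.35 higher on the log2 scale, about the size of the spread between replicates (pooled SD 0.34), and 0.13 higher without CKO replicate 2. This difference was not tested. Against Flt1 alone, Kdr per kilobase was 100, 93.0 and 119 times as abundant in the controls and 167, 175 and 206 times in the CKO. The receptor ratio did not overlap between groups, a pair that was singled out after its values were seen and was not tested. The same ratio of Kdr to each member other than Flt1 did overlap between groups. To Pecam1, for example, it was 32.1, 43.3 and 43.6 in the controls and 52.1, 85.6 and 40.8 in the CKO.

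**Figure D3:**
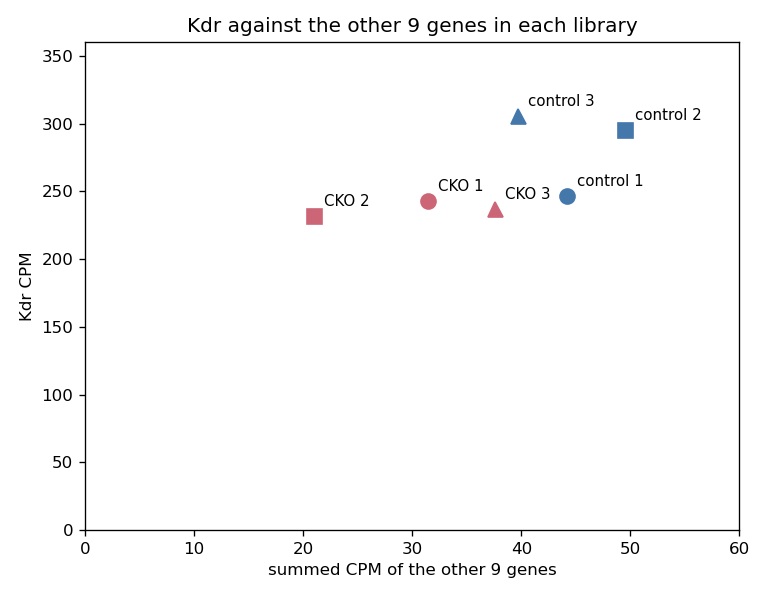
Kdr CPM (vertical axis) against the summed CPM of the other 9 genes (horizontal axis) in each library, with both axes starting at 0. The 3 CKO libraries and control replicate 1 lie between 232 and 247 CPM of Kdr while their summed level of the other genes runs from 21.0 to 44.2 CPM.

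Genes outside all lists were ranked by likeness, the root mean square difference of centred log2 CPM over the 6 libraries, among 12536 candidates. The profiles closest to Pecam1 were those of F13a1 (0.08), Cnn2 (0.22), Lama4 (0.22), Tmem132b (0.22) and Tmem115 (0.22). F13a1, which encodes a coagulation factor subunit, stood at 6.24, 6.15 and 6.28 CPM in control libraries and 3.70, 2.46 and 5.44 CPM in CKO libraries. Closest to Kdr were Mmp17 (0.02), Prex1 (0.03), Sec16a (0.03), Atf7ip (0.04) and Tcf4 (0.04). Among the members, the profile of Pecam1 differed by 0.19 from that of Esam, 0.20 from that of Eng and 0.32 from that of Cdh5. Its difference was 0.36 from Flt1, 0.37 from Kdr, 0.38 from Tie1 and from Emcn, 0.42 from Cldn5 and 0.59 from Tek. By this measure Kdr lay within the range of the other members.

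Further endothelial genes outside the set were also mostly lower in the CKO. Of 28 listed, 25 were tested and 20 had negative log2 fold changes, with a median of -0.50. None passed with edgeR or limma-voom, 6 were lower at an unadjusted p under 0.05 in edgeR (4.36% of all tested genes), and DESeq2 called 2 of 24 lower (1.46% of all). In 7 of the 25, each CKO library lay below each control (6.91% of all), and in 1, Ramp2, above (5.74% of all). The genes called by DESeq2, named after their values were seen, were Vwf, von Willebrand factor, and Rasip1, a regulator of small GTPases in vessel lumens. Vwf stood at 7.89, 13.5 and 5.67 CPM in control libraries and 3.43, 2.24 and 4.01 CPM in CKO libraries (DESeq2 adjusted p = 0.00623, edgeR 0.221). Rasip1 stood at 9.22, 14.3 and 9.21 CPM in control libraries and 5.19, 4.63 and 5.15 CPM in CKO libraries (DESeq2 adjusted p = 0.000947, edgeR 0.0982). The groups did not overlap for either gene. The most abundant genes of the list, Rhoj and S1pr1, stood at 21.5 ± 7.01 and 16.9 ± 6.75 CPM in control libraries and 17.0 ± 1.53 and 15.1 ± 0.93 CPM in CKO libraries. CKO replicate 2 was the lowest library for 18 of the 25 genes, and for 8.60% of all tested genes.

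Of 14 endothelial transcription factor genes, 10 were tested and 8 had negative log2 fold changes (55.0% of all tested genes), with a median of -0.20. None passed with edgeR, DESeq2 or limma-voom, and 1 was lower at an unadjusted p under 0.05 (4.36% of all). Lmo2 and Mecom were the most abundant, at 38.5 ± 1.18 and 21.1 ± 7.90 CPM in control libraries and 45.8 ± 2.74 and 15.1 ± 1.21 CPM in CKO libraries. Etv2, an early regulator of vessel formation, had no read in any library.

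No gene on a list of vascular ligands passed the test. The list holds VEGF and angiopoietin genes and also others, such as Apln, Pdgfb and Angptl2. Its counts thus cover more than ligands of the member receptors. Of 12 measured ligand genes 9 were tested, 6 with negative log2 fold changes (55.0% of all tested genes), with a median of -0.09. None was called by edgeR, DESeq2 or limma-voom, and 0 had an unadjusted p under 0.05 (lower in 4.36% of all). Vegfa, the principal ligand of both VEGF receptors, stood at 67.1, 182 and 175 CPM in control libraries and 79.2, 148 and 164 CPM in CKO libraries. Replicate 1 was the low library in each group, and the groups overlapped (log2 fold change -0.12 ± 0.41). Vegfb, a ligand of VEGFR-1, stood at 42.8 ± 3.55 and 45.5 ± 0.86 CPM in control and CKO, and Pgf, another VEGFR-1 ligand, at 4.09 ± 2.25 and 3.03 ± 0.50 CPM. The TIE2 ligands stood at 7.48 ± 1.34 and 5.42 ± 1.09 CPM for Angpt1 and at 5.27 ± 0.91 and 5.89 ± 0.40 CPM for Angpt2.

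Other vascular receptors and co-receptors had negative log2 fold changes in 10 of 12 genes (55.0% of all tested genes), with a median of -0.22. None passed with edgeR, DESeq2 or limma-voom, and 1, Nrp2, was lower at an unadjusted p under 0.05 (4.36% of all). Nrp1, a co-receptor of VEGFR-2 that neurons also use, stood at 69.0, 92.6 and 75.7 CPM in control libraries and 68.4, 69.2 and 69.5 CPM in CKO libraries. Nrp2 stood at 14.2, 17.7 and 17.7 CPM in control libraries and 13.3, 12.8 and 11.3 CPM in CKO libraries. Each CKO library lay below each control library, as in 6.91% of all tested genes. Flt4 (VEGFR-3), Acvrl1 (ALK1, which signals with endoglin) and Aplnr were low, at control means of 1.93 ± 0.89, 1.93 ± 0.38 and 1.33 ± 0.16 CPM and CKO means of 1.51 ± 0.50, 1.20 ± 0.68 and 0.90 ± 0.45 CPM. CKO replicate 2 was the lowest library for these 3 genes and also for Unc5b, Plxnd1, Ptk7, Itga5 and Tgfbr2 (8.60% of all tested genes). It was not the lowest for Nrp1, Nrp2, Bmpr2 and Itgb3. Itgb3 was lower still, at 0.76 ± 0.14 and 0.92 ± 0.13 CPM in control and CKO (log2 fold change 0.28 ± 0.29).

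**Figure D4:**
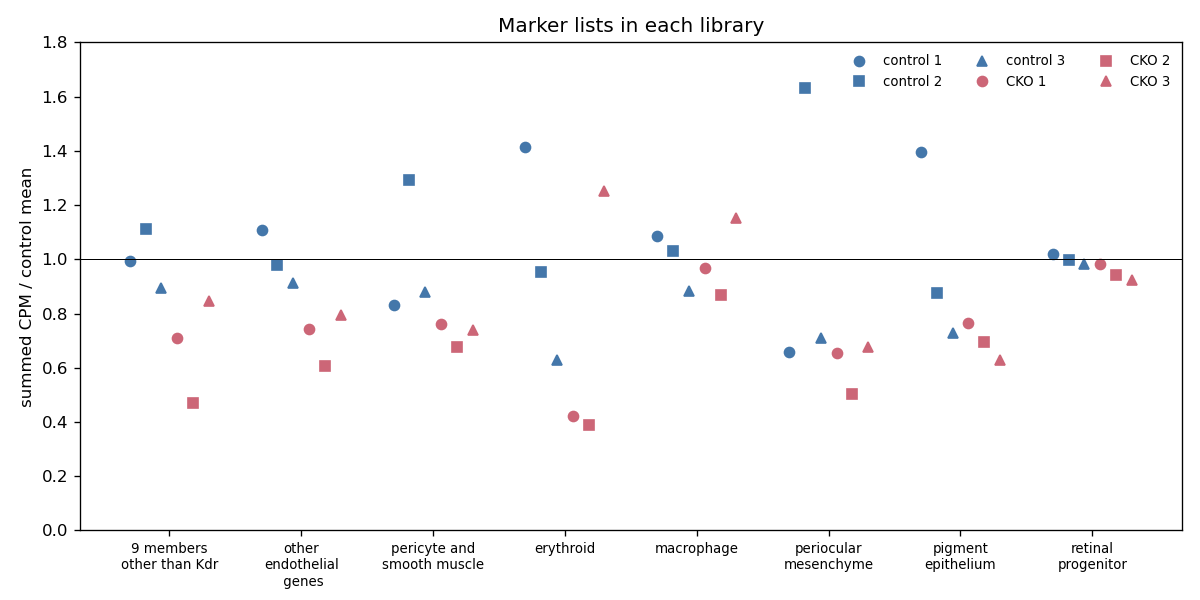
Summed CPM of 8 gene lists in each library, divided by the mean of the 3 controls (vertical axis, starting at 0), with colours for genotype and shapes for replicate number. The 9 members and the further endothelial genes lie lower in each CKO library than in each control, as does the pericyte and smooth muscle list. The progenitor list does so by a narrow margin (10021 CPM in CKO replicate 1, 10040 CPM in control replicate 3). The erythroid, macrophage, mesenchyme and pigment epithelium lists overlap.

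Cells that accompany vessels, and tissues that adjoin the retina, were measured beside these genes. Of the pericyte and smooth muscle, macrophage, erythroid, mesenchyme and pigment epithelium lists, no gene passed with edgeR, DESeq2 or limma-voom. Their counts lower at an unadjusted p stand beside 4.36% of all tested genes. Pericyte and smooth muscle markers had a summed level of 185 to 287 CPM in control libraries and 150 to 169 CPM in CKO libraries, with 10 of 13 tested genes negative (median -0.23) and 3 lower at an unadjusted p under 0.05. These sums did not overlap between groups, and 4 of the 13 genes lay lower in each CKO library than in each control (6.91% of all). The part of these cells in the vessel gene differences was not tested. Notch3 accounted for most of that sum, at 165 ± 54.1 and 113 ± 8.06 CPM, and Pdgfrb stood at 20.5 ± 2.84 and 18.0 ± 0.39 CPM. Macrophage markers summed to 52.8 to 65.0 CPM and 51.8 to 68.8 CPM (15 tested, median 0.13, 1 lower at an unadjusted p under 0.05), with Csf1r at 15.5 ± 1.01 and 15.2 ± 1.22 CPM and Cx3cr1 at 8.39 ± 1.68 and 7.50 ± 1.61 CPM.

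Erythroid markers, which enter with blood, summed to 18.3, 12.3 and 8.14 CPM in control libraries and 5.47, 5.04 and 16.2 CPM in CKO libraries. They were low in CKO replicates 1 and 2 and high in CKO replicate 3, the library in which the summed level of the 9 vessel genes other than Kdr was highest within the CKO. The adult globin genes Hba-a2, Hbb-b1 and Hbb-b2 had 0 reads in each library. The counts do not show whether their RNA was absent or its reads went uncounted. The sum rests on other genes: Alas2, of haem synthesis, stood at 5.15 ± 0.84 and 2.79 ± 0.78 CPM and the embryonic globin gene Hbb-y at 4.38 ± 3.88 and 3.08 ± 3.17 CPM. Of 14 genes 4 were tested, 3 of them negative (median -0.49), with 1 lower at an unadjusted p under 0.05. The part of blood content in the vessel gene differences was not tested.

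Periocular mesenchyme markers summed to 77.0, 191 and 82.8 CPM in control libraries and 76.4, 58.6 and 79.3 CPM in CKO libraries, where replicate 2 was again lowest (7 tested, 3 negative, median 0.50, 1 lower at an unadjusted p under 0.05). No marker of that list was at 0 in all libraries. Col6a1 stood at 60.1 ± 44.6 and 30.5 ± 5.38 CPM and Col1a2 at 43.3 ± 18.9 and 20.5 ± 4.48 CPM. Pigment epithelium markers summed to 80.2, 50.4 and 41.7 CPM in control libraries and 43.9, 40.0 and 36.1 CPM in CKO libraries (7 tested, 6 negative, median -0.57, 2 lower at an unadjusted p under 0.05), with Trpm1 at 29.5 ± 11.7 and 19.1 ± 0.80 CPM and Pmel at 10.4 ± 4.76 and 7.02 ± 1.64 CPM. None of that list was at 0 in all libraries. The part of adjoining tissue in the vessel gene differences was not tested.

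Progenitor and lens genes were compared last. Sums of the 14 progenitor genes were also lower in each CKO library than in each control. The margin was narrow, with 10021 CPM in CKO replicate 1 and 10040 CPM in control replicate 3. The 14 genes had 7 negative and 7 positive log2 fold changes (median -0.01). None was called by edgeR, DESeq2 or limma-voom, and 1 was lower at an unadjusted p under 0.05 (4.36% of all tested genes). Ccnd1, the most abundant of them, stood at 4087 ± 191 and 3611 ± 275 CPM, and Fgf15 at 1265 ± 267 and 1351 ± 15.5 CPM. All 13 tested lens genes were positive (median 8.19) and higher at an unadjusted p under 0.05. Of all 14609 tested genes, 962 had an unadjusted p under 0.05, 637 of them as lower in the CKO. None of the lens genes was called by edgeR or limma-voom. DESeq2 called 12 of 12 higher, Cryab having no adjusted p there, among 117 genes that it called higher in all. Cryaa and Cryba1 were at 2.62 ± 1.47 and 1.74 ± 1.42 CPM in control libraries and 1149 ± 1810 and 672 ± 1053 CPM in CKO libraries. The lens sum was highest in CKO replicate 1 and lowest of the CKO in replicate 2, whereas the summed level of the vessel genes other than Kdr was intermediate in CKO replicate 1, lowest in replicate 2 and highest in replicate 3. Flt1, Tek and Cldn5 did not follow the order of that sum.

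**Figure D5:**
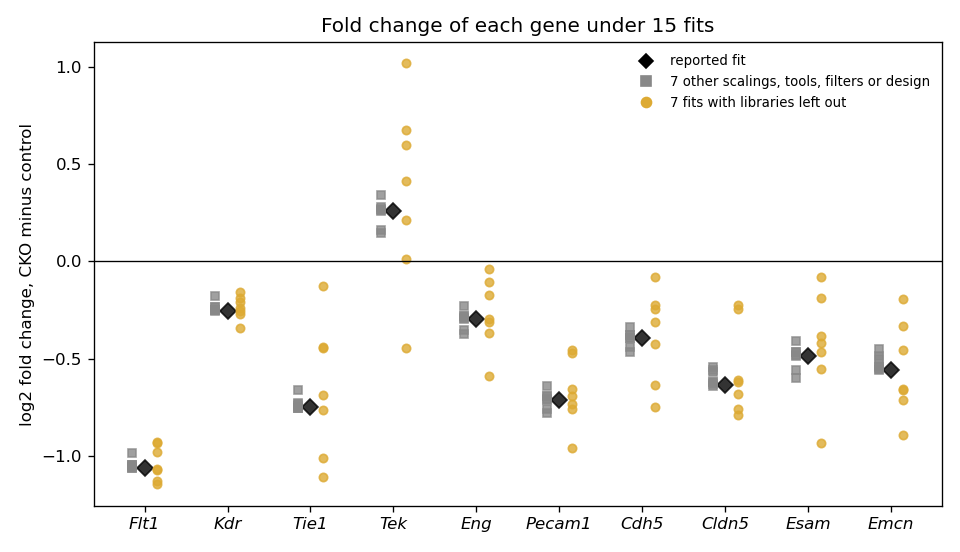
Log2 fold change (CKO minus control, vertical axis) of each member under the reported edgeR fit (diamonds), 7 other scalings, tools, filters or designs (squares) and 7 fits with libraries left out (circles). Flt1 stayed between -1.14 and -0.93 and Kdr between -0.34 and -0.16, whereas Tek ran from -0.44 to 1.02.

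Across these 14 alternatives Flt1 kept its size, with adjusted p values from 0.00684 (DESeq2) to 0.645 (without CKO replicate 3). The values of Tie1 (-1.11 to -0.13), Esam (-0.93 to -0.08), Cdh5 (-0.75 to -0.08), Eng (-0.59 to -0.04), Pecam1 (-0.96 to -0.45), Cldn5 (-0.79 to -0.22) and Emcn (-0.89 to -0.19) stayed negative. Without CKO replicate 2 alone, Tie1 was at -0.44, Esam at -0.19, Cdh5 at -0.08 and Eng at -0.04.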

How the data were processed

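Polyadenylated RNA of 3 control and 3 CKO retina libraries was sequenced. The authors deposited raw read counts per gene symbol. The submitters' processing notes list build mm9, HTSeq 0.5.4p3, BWA 0.7.6a-r433 and DESeq 2.13, without stated roles. Annotation and strand setting: not given in the sources used here, and reads of a gene and of one antisense to it may be mixed. The last 4 lines that hold no gene were skipped and 1 repeated row was kept once.

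The analysis used edgeR 4.0.16 in R 4.3.3: filterByExpr (minimum count 10), TMM, and the quasi-likelihood F test with genotype as the only term, adjusted by Benjamini-Hochberg over all 14609 genes at 0.05. The SE of a log2 fold change is its absolute value divided by the square root of F. The fit was tested on simulated counts. CPM use TMM-scaled library sizes. Exon lengths (union of exons) were found for 205 of 207 list genes. They and the start regions are of another build than the counts, so no other coordinates are given.

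The members, gene lists and tests were chosen with earlier results of these data known. All members are named, and from each other list the 2 most abundant genes where none was called, with ligands and receptors named more fully. Also named are Thap11 and the 5 genes most like Pecam1 and Kdr among genes whose mean log2 CPM (edgeR, prior count 2) reached 1. The profiles compared were log2 of CPM plus 0.5. Alternatives were DESeq2 size factors, library size alone, DESeq2 1.42.0, limma-voom (limma 3.58.1), 2 other filters (a total above 0, or 1 CPM in 3 libraries), a replicate block, and leaving out libraries. Each pair of libraries differed by more than sampling noise (chi-square per degree of freedom of at least 5.94). In the start regions, the short core ACTACA was searched in place of the longer Ronin element; it was chosen after the longer element had been searched and had matched no member, and that earlier search is not reported here.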

Additional observations from a re-analysis of the deposited data

How the results depend on the processing

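Of 14 alternatives, 1 called a member: DESeq2 called 1, Flt1, as lower. Calls over all genes numbered 131, against 326 with DESeq2, 39 with both replicates numbered 2 omitted (an alternative chosen after seeing the data), and between 16 (without CKO replicate 3) and 219 (without control replicate 2) when single libraries were left out. The other values there were 97 without control replicate 1, 33 without control replicate 3, 41 without CKO replicate 1 and 53 without CKO replicate 2. Tek changed sign in 1 of 14 alternatives, with values from -0.44 to 0.67 when 1 library was left out. The median of the 9 genes other than Kdr ran from -0.75 to -0.22, its smallest size with both replicates numbered 2 omitted, where Kdr per read of those genes was 0.09 higher in the CKO on the log2 scale. Medians of all genes lay between -0.03 and 0.04 under the 3 scalings. With the replicate number as a block, 153 genes and 0 members were called, and Kdr was at -0.25 (adjusted p = 0.971). Deviations of same-numbered libraries correlated at 0.32, 0.10 and -0.02, and control replicate 2 was closest to CKO replicate 3, so the numbers were not taken to pair the libraries. Depth alone does not give the spread of the members with few reads: the coefficient of variation of Tek was 45.1% in the controls, where the mean read number gives 19.5%, and that of Emcn 51.5%, where it gives 16.3%.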

Other observations

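Signalling around the vessel genes was also read from lists of Notch, norrin, barrier and hypoxia genes, as values. In none of these 4 lists did edgeR, DESeq2 or limma-voom call a member. Of 9 Notch genes of tip and stalk cells, 3 had negative log2 fold changes (median 0.10), and 0 had an unadjusted p under 0.05 (lower in 4.36% of all tested genes, here and for the lists that follow). Notch1 stood at 544 ± 114 CPM in control libraries and 418 ± 24.1 CPM in CKO libraries, and Dll1 at 102 ± 12.5 and 112 ± 13.7 CPM (SD, n = 3 per group). Norrin signalling, which guides retinal vessels through the receptor FZD4, had 3 of 6 genes negative (median -0.05) and 1 lower at an unadjusted p under 0.05, with Ctnnb1 at 1382 ± 341 and 1419 ± 57.4 CPM and Lrp5 at 227 ± 61.1 and 191 ± 8.54 CPM.

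Barrier and transport genes of central nervous system vessels were negative in 4 of 8 tested genes (median -0.08), with 1 lower at an unadjusted p under 0.05. In 3 of the 8, Slc2a1 among them, each CKO library lay below each control (6.91% of all tested genes). In 0 of the 8 it lay above (5.74% of all). Slc2a1, the glucose transporter gene, stood at 801 ± 39.7 and 698 ± 58.2 CPM and Slc7a5, an amino acid transporter gene, at 182 ± 20.5 and 236 ± 39.9 CPM in control and CKO. In the pathway of hypoxia-inducible factors, which controls VEGF, 7 of 13 tested genes were negative (median -0.09), with 1 lower at an unadjusted p under 0.05. Hif1a stood at 515 ± 94.2 and 558 ± 27.6 CPM and Ndrg1 at 128 ± 10.8 and 128 ± 8.40 CPM.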
